A study of Mus musculus with 15 samples.

Results

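Histone acetylation and hydroxymethylated DNA were described at 7 loci of mouse medium spiny neuron genes: the receptors Drd1a, Drd2 and Adora2a, the signalling gene Ppp1r1b and the neuropeptide precursors Penk, Pdyn and Tac1. The loci were chosen by position, as mm9 windows of 100 to 170 kb around each gene, and every deposited region or interval that shared at least 1 bp with a window was taken. They held 70 of 49712 listed regions of H3K27ac (histone H3 acetylated at lysine 27), 4 of 11748 listed regions of 5-hydroxymethylcytosine (5hmC), and 14 of 21130 listed 5hmC enhancer intervals. The windows were chr13:54100000-54200000 for Drd1a, chr9:49100000-49270000 for Drd2, chr10:74730000-74840000 for Adora2a and chr11:98160000-98270000 for Ppp1r1b. Those of the peptide genes were chr4:4010000-4110000 for Penk, chr2:129460000-129570000 for Pdyn and chr6:7450000-7560000 for Tac1.

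The tissue was nucleus accumbens of C57BL/6 mice that had received cocaine by intraperitoneal injection on 7 successive days (20 mg/kg each day) or saline. Each mark was profiled in 3 cocaine and 3 saline libraries, by capture sequencing for 5hmC and by ChIP-seq for H3K27ac, with 2 ChIP input libraries (1 per treatment). Another 1 library, labelled as cerebellum in one field and as nucleus accumbens in another, entered no comparison made here. The labels give no age or sex and leave unsaid if each library is a separate animal, so every p-value measures only library-to-library spread, which may be technical. The tissue was not sorted, so a different share of a cell type and a different level per cell cannot be told apart in any result here.

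Medium spiny neurons are the GABAergic projection neurons that make up most neurons of the accumbens. Those of the direct pathway express the dopamine receptor gene Drd1a and the peptide precursors Pdyn and Tac1, those of the indirect pathway express Drd2, the adenosine receptor gene Adora2a and Penk, and both express Ppp1r1b. H3K27ac marks active enhancers and promoters, and 5hmC arises when Tet enzymes oxidise 5-methylcytosine, chiefly at CG dinucleotides.

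The promoters of Drd2 and Pdyn, loci with listed 5hmC regions, are shown with each CG marked. Their CG content was not compared with the 5hmC values. RefSeq sequences of GRCm38.p6 (250 bases before to 50 after the gene start) were matched for 4 of the 7 genes, and of these Drd2 and Pdyn had a 5hmC region in their window. These positions are in GRCm38 and were not placed against the mm9 regions. The Drd2 promoter is chr9:49340153-49340452 on the plus strand, the Pdyn promoter chr2:129699889-129700188 on the minus strand, and capitals mark each CG.
Drd2: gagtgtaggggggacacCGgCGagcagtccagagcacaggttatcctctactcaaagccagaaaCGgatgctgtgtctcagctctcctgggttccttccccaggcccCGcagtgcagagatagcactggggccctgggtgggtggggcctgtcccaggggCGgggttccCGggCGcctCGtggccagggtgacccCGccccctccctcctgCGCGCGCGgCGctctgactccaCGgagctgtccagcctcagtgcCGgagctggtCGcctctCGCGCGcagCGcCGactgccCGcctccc
Pdyn: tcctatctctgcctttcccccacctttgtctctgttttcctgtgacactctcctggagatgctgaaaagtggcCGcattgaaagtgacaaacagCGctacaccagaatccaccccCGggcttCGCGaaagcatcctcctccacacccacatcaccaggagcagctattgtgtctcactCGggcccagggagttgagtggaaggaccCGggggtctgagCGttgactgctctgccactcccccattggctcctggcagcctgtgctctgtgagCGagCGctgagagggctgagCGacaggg
The Drd2 promoter held 23 CG dinucleotides in 300 bases and the Pdyn promoter 11, against a median of 7 over 32851 RefSeq promoters. The promoters of Drd1 (the current symbol of Drd1a, with 23 CG at its first listed start and 6 at its second) and Tac1 (22 CG) also exceeded that median at the first start, and the second Pdyn start had 5. On both strands, the cAMP response element TGACGTCA and the AP-1 site TGANTCA were in none of these 6 windows, and in 1.79% and 7.81% of all promoters. The shorter core TGACG, which is part of TGACGTCA, occurred 2 times at Tac1 and is in 20.8% of all promoters. The GC box GGGCGG occurred 2 times at Drd2, 1 time at Tac1, 1 time at each Drd1 start and 0 times at Pdyn, and is in 35.7% of all promoters.

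H3K27ac was spread over the loci very unevenly. The Ppp1r1b window held 28 listed regions that covered 35.9% of it, whereas the Tac1 window held 2 and the Penk window 3, which covered 3.46% and 3.60%. Drd1a had 14 regions over 19.7% of its window, Adora2a 10 over 13.2%, Drd2 9 over 5.77% and Pdyn 4 over 5.18%. Of all 110 kb bins of the genome, 0.388% held at least as many regions as Ppp1r1b and 30.5% at least as many as Tac1, while 56.9% held none. Levels also differed. Expressed as normalised counts per kb of region and averaged over the 6 libraries, the highest region was 1059 at Ppp1r1b (chr11:98209401-98211300) and 906 at Drd1a (chr13:54150401-54151400). The highest regions of the other loci were 610.2 at Adora2a (chr10:74778601-74780600), 486 at Drd2 (chr9:49197901-49198900) and 450.4 at Tac1 (chr6:7554001-7556100), then 438 at Pdyn (chr2:129524301-129525700) and 405 at Penk (chr4:4064101-4065600). The median of all 49712 regions was 373 per kb, and the Ppp1r1b and Drd1a regions lay at level percentiles of 99.8 and 99.4. In cocaine and saline these levels were 1041 ± 16.9 and 1078 ± 38.2 at Ppp1r1b, 875 ± 33.6 and 937 ± 71.9 at Drd1a, and 596 ± 7.70 and 624 ± 22.9 at Adora2a (SD, n = 3). They were 483 ± 12.7 and 489 ± 1.64 at Drd2, 456 ± 19.0 and 445 ± 12.5 at Tac1, 449 ± 21.3 and 427 ± 13.7 at Pdyn, and 411 ± 10.2 and 399 ± 13.5 at Penk. The order of the 7 loci was the same in both groups, and in cocaine the neighbours Tac1 and Pdyn were closer than either SD. All 70 regions lay between 233.6 and 1059 per kb and were 1000 to 4100 bp long. The windows also hold neighbouring genes (RefSeq places Stard3 next to Ppp1r1b and Ankk1 next to Drd2), and the regions were not assigned to a gene, exon or promoter, since no mm9 annotation was used here.

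**Figure D1:**
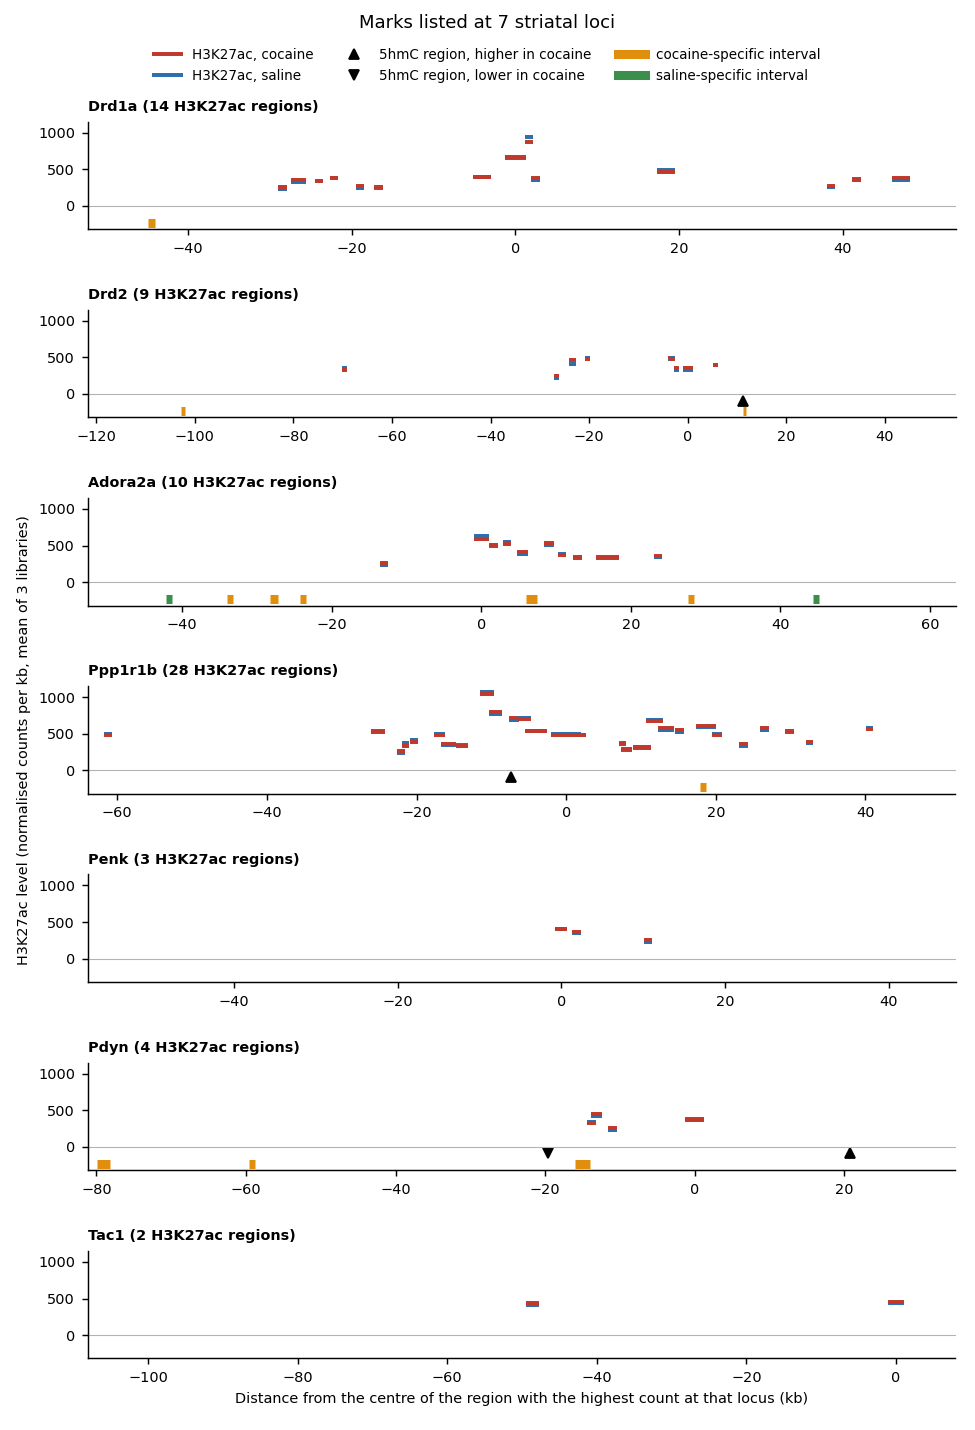
H3K27ac regions (bars; mean normalised counts per kb of 3 libraries, cocaine in red drawn over saline in blue), 5hmC regions (triangles) and 5hmC enhancer intervals (blocks) against distance in kb from the region with the highest count at each locus. Ppp1r1b carried 28 H3K27ac regions and Tac1 2, and 5 of the 12 cocaine-specific intervals lay at Adora2a.

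Over the whole table, the normalised H3K27ac counts of a library summed to between 31666100 and 32720000, with saline replicate 3 the highest. Replicate libraries correlated at a Pearson's r of 0.994 to 0.996 over regions, and libraries of different groups at 0.986 to 0.993. Over all regions the summed level differed by -1.44% in cocaine, and 47.4% of regions were higher. All regions were listed by the authors' caller on these same libraries, so no call and no summed level of a locus below is an independent test of them. For the summed levels, the share of equal windows of the genome with separate groups is not given here. Each region's spread between libraries was moderated in limma by a trend over all regions.

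The comparison of cocaine with saline asked whether H3K27ac at these loci differed after the injections. Differences were small: of 70 regions, 44 were higher and 26 lower in cocaine (62.9% higher), with a median log2 fold change of 0.042, against -0.02 over all regions. The values of the 70 ran from -0.20 to 0.18, and those of all regions from -0.94 to 0.44. Past a Benjamini-Hochberg adjusted p of 0.05 in limma, 6 regions rose, at Drd1a (2), Drd2, Adora2a, Ppp1r1b and Pdyn, and 1 region fell, at Ppp1r1b. Over all 49712 regions 3.42% rose and 9.62% fell by that rule. The cocaine and saline values did not overlap in 18 regions (13 higher in cocaine and 5 lower), against 12.0% and 17.1% of all regions. Of the 6 regions that rose, 5 were below the median level per kb of all regions, as were 1537 of the 1699 that rose in the whole table (90.5%). Among regions below that level, 72.4% of the 29 at these loci and 55.8% of all regions were higher. Among those at or above it, 56.1% of 41 at these loci and 39.0% of all regions were higher. After cyclic loess scaling, which moved the share of all regions higher in cocaine to 50.7%, 47 of the 70 were higher and their median log2 fold change was 0.052. Its calls at the loci numbered 8 (11.4% of the 70, against 15% of all regions), of which 3 were among the 7 calls on the deposited scale.

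**Figure D2:**
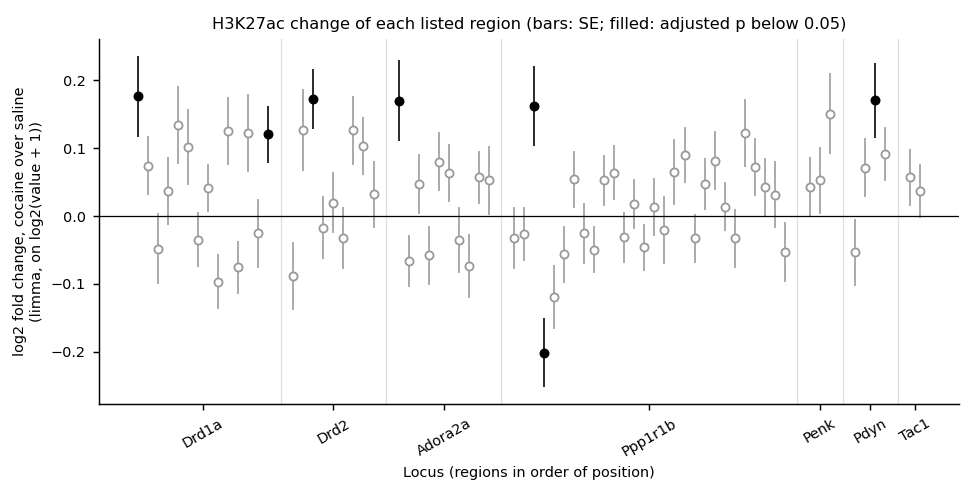
Change of each of the 70 H3K27ac regions (log2 fold change, cocaine over saline, from limma on log2(value + 1); bars, SE) in order of position within each locus, with filled points past an adjusted p of 0.05. The 6 filled points above 0 and the 1 below lay between 0.12 and 0.18 and at -0.20.

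The direct and indirect pathway loci gave like summaries. Of 20 regions at Drd1a, Pdyn and Tac1, 14 were higher in cocaine, with a median log2 fold change of 0.064. Of 22 regions at Drd2, Adora2a and Penk, 15 were higher, with a median of 0.050, and of 28 regions at Ppp1r1b 15 were higher, with a median of 0.013. Summed over regions, H3K27ac was 2.38% higher in cocaine at the direct pathway loci, 2.26% higher at the indirect pathway loci and 0.108% higher at Ppp1r1b. The difference between the pathways was not tested.

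Among the receptor loci, the first was Drd1a, which encodes the dopamine receptor that couples to stimulatory G proteins. Its summed H3K27ac in cocaine replicates 1 to 3 was 8405, 8453 and 8376 normalised counts, and in saline replicates 1 to 3 it was 8343, 8070 and 8445. Saline replicate 2 was low and the groups overlapped. The means were 8412 ± 38.6 and 8286 ± 194 (SD, n = 3), a difference of 1.51% with an exact two-sided permutation p of 0.4. With 3 libraries against 3 the smallest p that this test can give is 0.1. At Drd1a it gave 0.1 after cyclic loess scaling (log2 ratio 0.0368) and on the mean of log2 values (0.0467). It also gave 0.1 with the shorter region of each overlapping pair dropped (0.0317). Over the middle of the window alone it gave 0.9 (-0.00406). The overlap of the groups at Drd1a thus depended on the setting. Of the 14 regions, 9 were higher and 5 lower.

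A Drd1a region at chr13:54120301-54121300, among the lowest in level at 240.5 per kb, read 248, 264 and 253 normalised counts in cocaine and 239.5, 221 and 217 in saline. All cocaine values lay above all saline values, and the increase was 13% (log2 fold change 0.18 ± 0.0595 SE, adjusted p = 0.0297). The region at chr13:54195301-54197400 read 779, 817 and 805 in cocaine against 737, 703 and 769.6 in saline. The groups were again separate, by under 10 counts between the lowest cocaine and the highest saline library, with an increase of 8.66% (0.12 ± 0.0414, adjusted p = 0.0340). The strongest region of the locus by count, chr13:54148001-54150500, was at 1679 ± 46.5 in cocaine and 1631 ± 54.5 in saline, and its groups overlapped (adjusted p = 0.454). Its neighbour with the highest level per kb, chr13:54150401-54151400, differed by -6.63%, the lowest value at Drd1a, and did not pass the test (-0.10 ± 0.0401, adjusted p = 0.0890).

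Drd2 encodes the dopamine receptor that couples to inhibitory G proteins. Summed H3K27ac was 4260, 4267 and 4127 normalised counts in cocaine and 4016, 4099 and 4096 in saline. Every cocaine library was above every saline library, with means of 4218 ± 79.2 and 4070.1 ± 47.0. The difference of 3.63% gave the smallest p the exact permutation test allows, 0.1. The largest rise there was at chr9:49194701-49196000, with 638, 608 and 576 counts in cocaine and 523, 550.3 and 542 in saline. Its groups were separate, and it rose by 12.8% (log2 fold change 0.17 ± 0.0443, adjusted p = 0.00239), with the lowest adjusted p of any region that rose at the 7 loci. Without cocaine replicate 1 its adjusted p was 0.0851.

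The other Drd2 regions differed less. The region of highest count, chr9:49217701-49219700, was at 716 ± 36.8 in cocaine and 666 ± 24.5 in saline (log2 fold change 0.10 ± 0.0424, adjusted p = 0.0861). The most negative difference was at chr9:49148501-49149600, with 367, 371 and 359.9 in cocaine and 371, 396 and 401 in saline. Its cocaine values lay just below all saline values, yet it did not pass the test (-0.088 ± 0.050, adjusted p = 0.239). The region of highest level per kb, chr9:49197901-49198900, differed by -0.017 ± 0.0458 (adjusted p = 0.740) in limma. For that region the authors' deposited table gives a p-value of 1.28e-10.

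Adora2a encodes the adenosine receptor that opposes Drd2 in indirect pathway neurons. Its summed H3K27ac was 6210, 6235 and 6039 normalised counts in cocaine and 6071, 6086 and 6171 in saline. Cocaine replicate 3 was the lowest of the 6 libraries, the groups overlapped, and the means of 6161 ± 106 and 6109 ± 54.0 differed by 0.856% (exact permutation p = 0.5). The region at chr10:74766101-74767100 read 249, 255 and 273 in cocaine and 231, 237 and 222 in saline. Here the groups were separate, with an increase of 12.6% (log2 fold change 0.17 ± 0.0591, adjusted p = 0.0358). The strongest Adora2a region, chr10:74778601-74780600, was at 1192 ± 15.4 in cocaine and 1249 ± 45.7 in saline (-0.067 ± 0.0381, adjusted p = 0.242). The most negative difference, at chr10:74791801-74793100, was -5.07% and did not pass the test (adjusted p = 0.303).

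Ppp1r1b encodes a phosphoprotein that inhibits protein phosphatase 1 when dopamine receptor signalling phosphorylates it. Its summed H3K27ac, the highest of the 7 loci, was 24097, 24279 and 23961 normalised counts in cocaine and 23908, 24009 and 24342 in saline. The groups overlapped completely, with means of 24112 ± 159 and 24086 ± 227 (exact permutation p = 0.9). The direction of this difference of 0.108% turned when cocaine replicate 2 or saline replicate 1 or 2 was left out. The 2 calls of the locus overlapped and went opposite ways. The region chr11:98198401-98199400 read 250.4, 260.0 and 269 in cocaine and 219, 246 and 232 in saline, and rose by 11.9% (0.16 ± 0.0589, adjusted p = 0.0467). The region chr11:98199001-98200000, which shares 400 bp with it, read 317, 324 and 352 in cocaine and 381, 361 and 399.6 in saline. All its cocaine values lay below all saline values, and it fell by 13.1% (-0.20 ± 0.0509, adjusted p = 0.00186). The regions with the highest level and the highest count, chr11:98209401-98211300 and chr11:98218901-98223000, differed by -3.42% and -3.17% and did not pass the test (adjusted p = 0.348 and 0.385).

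Overlapping listed regions with opposite directions were general in the table. At the 7 loci, 26 of the 70 regions overlapped another, in 15 pairs (10 of them at Ppp1r1b), and the members of all 15 pairs differed in direction. Of all 8939 such pairs in the deposited list, 8481 (94.9%) did. When the shorter region of each overlapping pair was dropped, or the later in position where lengths were equal, 6 calls were left at the 7 loci. The share called among all regions kept by that rule is not given here. The call lost was the Ppp1r1b decrease, which is as long as the region it overlaps. The summed levels added all listed regions, so bases shared by overlapping regions were counted more than 1 time. With the same regions dropped, the log2 ratio of the sums was 0.0975 at Pdyn (0.0705 with all) and 0.0626 at Drd2 (0.0515). It was 0.0317 at Drd1a (0.0217) and 0.0049 at Ppp1r1b (0.00155).

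Among the peptide loci, Penk encodes the precursor of the enkephalins. Its 3 regions were all higher in cocaine, and their sum was 1244, 1294 and 1245 normalised counts in cocaine against 1199, 1158 and 1256 in saline. Saline replicate 3 was above cocaine replicates 1 and 3, so the groups overlapped. The means of 1261 ± 28.8 and 1204 ± 49.0 differed by 4.71% (exact permutation p = 0.3). The largest difference, at chr4:4074901-4075900, did not pass the test (248 ± 9.79 in cocaine, 223 ± 14.9 in saline, 0.15 ± 0.0601, adjusted p = 0.0741). The strongest region, chr4:4064101-4065600, had an adjusted p of 0.515.

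Pdyn encodes the precursor of the dynorphins, peptides that act on the kappa opioid receptor. Its summed H3K27ac was 2281, 2303 and 2283 normalised counts in cocaine and 2215, 2143 and 2181 in saline. The groups were separate, with means of 2289 ± 12.0 and 2179.8 ± 35.8. The difference of 5.01% gave an exact permutation p of 0.1, the smallest possible. The region chr2:129526501-129527700 read 300.2, 305 and 324 in cocaine and 293, 268 and 265 in saline. These groups were separate too, with a rise of 12.5% (0.17 ± 0.0550, adjusted p = 0.0220). The authors' deposited table gives this region a p-value of 0.352, so the caller and limma differed on it. Its deposited ratio to background went the other way from its counts, at 1.90 in cocaine and 2.19 in saline. In every other called region at the 7 loci that ratio went the same way as the counts. The region of highest count, chr2:129536901-129539400, was at 964 ± 41.8 in cocaine and 904 ± 24.9 in saline (0.091 ± 0.0399, adjusted p = 0.112). The only Pdyn region that was lower, chr2:129523701-129524900, differed by -0.054 (adjusted p = 0.479).

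Tac1 encodes the precursor of substance P and neurokinin A. Its 2 regions summed to 1623, 1748 and 1708 normalised counts in cocaine and 1615, 1602 and 1703 in saline. Saline replicate 3 was above cocaine replicate 1, so the groups overlapped, and the means of 1693 ± 64.0 and 1640 ± 55.0 differed by 3.26% (exact permutation p = 0.2). Neither region passed the test. The log2 fold change was 0.057 ± 0.0420 at chr6:7505601-7507300 (adjusted p = 0.373) and 0.037 ± 0.0398 at chr6:7554001-7556100 (adjusted p = 0.538).

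**Figure D3:**
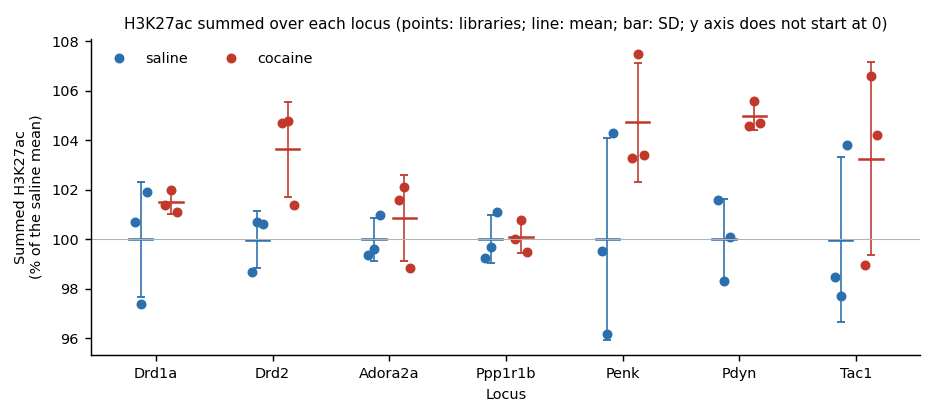
Summed H3K27ac of each locus in every library, as a percent of that locus's saline mean (line, mean; bar, SD; n = 3 libraries per group). On the deposited scale and over all listed regions, only at Drd2 and Pdyn did all cocaine libraries lie above all saline libraries. The share of other windows of the genome with such separate sums is not given here.

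The 7 calls were refitted with each library left out in turn. The decrease at Ppp1r1b passed when any 1 library was left out, with adjusted p of at most 0.0486. The increase at Drd2 was lost without cocaine replicate 1, and each of the other 5 increases was lost in 4 or 5 of the 6 leave-one-out fits, with adjusted p of up to 0.227. Both Drd1a increases passed in 1 such fit each, without saline replicate 1 (chr13:54120301) and without saline replicate 3 (chr13:54195301). Those at Adora2a and Ppp1r1b passed without saline replicate 2 alone, and that at Pdyn without cocaine replicate 1 and without saline replicate 1. Their log2 fold changes kept their sign in these fits, from 0.087 to 0.153 at chr13:54195301, 0.150 to 0.219 at chr13:54120301, 0.133 to 0.197 at Adora2a, 0.122 to 0.204 at Ppp1r1b and 0.138 to 0.216 at Pdyn. Over all regions calls also fell in number in 5 of the 6 fits, to as few as 3055 of 6479. Other named regions passed in 1 such fit: chr13:54150401-54151400 at Drd1a without saline replicate 2 (adjusted p = 0.00757), chr9:49217701-49219700 at Drd2 without cocaine replicate 3 (0.0294) and chr4:4074901-4075900 at Penk without saline replicate 3 (0.0364). After cyclic loess scaling, 4 of the 6 increases no longer passed: Drd1a at chr13:54120301-54121300 (adjusted p = 0.104), Adora2a (0.116), Ppp1r1b (0.142) and Pdyn (0.0515). The scaling also added 5 regions that had not passed before, all higher in cocaine, among them chr13:54148001-54150500 at Drd1a (adjusted p = 0.0425), chr9:49217701-49219700 at Drd2 (0.0323) and chr2:129536901-129539400 at Pdyn (0.0127). The other 2 were at Ppp1r1b, named here after their values were seen: chr11:98210701-98212400 (0.0393) and chr11:98229901-98232300 (0.0437). With each region's own variance and no moderation none of the 7 passed, with adjusted p from 0.281 to 0.291, and 2 of all 49712 regions passed. Unadjusted p was then below 0.05 in 15.7% of the 70 and 17.2% of all regions, and in the moderated fit in 27.1% and 27.3%. 

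**Figure D4:**
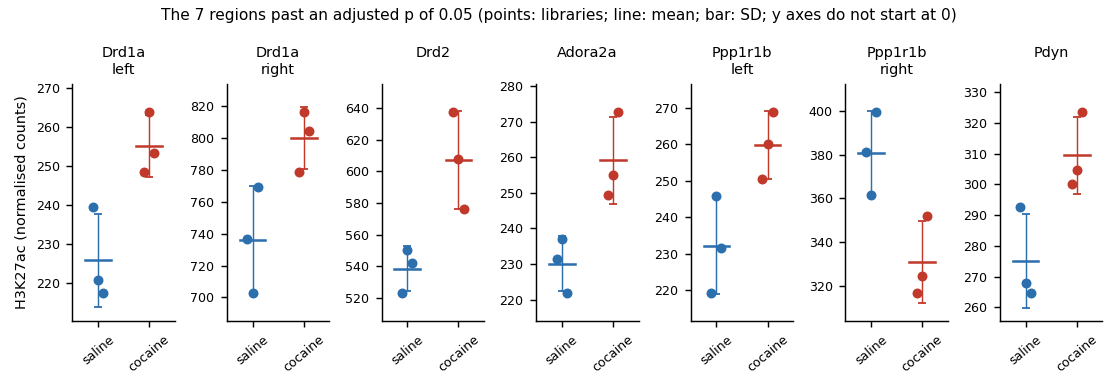
Normalised H3K27ac counts per library (points; line, mean; bar, SD; n = 3) of the 7 regions past an adjusted p of 0.05, with left and right in order of position and y axes that do not start at 0. Cocaine lies above saline in 6 panels and below it in the Ppp1r1b right panel, with no overlap in any.

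The p-values in the authors' deposited table did not follow the size of the change. Of the 70 regions, 44 had a deposited adjusted p below 0.05, and in 22 of these the absolute log2 fold change was at most 0.05. Of those 44, 6 passed in limma. Over the whole table the corresponding counts were 32739, 15279 and 4487.

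Listed 5hmC regions occurred at Drd2 (1), Ppp1r1b (1) and Pdyn (2), and none was listed at Drd1a, Adora2a, Penk or Tac1. At 3 of the 4 the value was higher in cocaine, against 58.5% of all listed regions. Regions entered this list for a difference between these libraries, so the values are a description with no test: the groups were separate in all 4, and in 99.9% of all listed regions. The table has no header, so its treatment columns were read as cocaine, and the libraries are given in the order of the table. The values rest on few reads, since 1 read was worth 0.896 to 1.23 normalised counts and the median region held 5 to 7 reads per library.

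The Drd2 5hmC region, chr9:49229781-49230000, had 12.5, 9.88 and 9.89 normalised counts in cocaine and 0.90, 3.09 and 4.93 in saline. Every cocaine value was at least 9.88 and every saline value at most 4.93, from 32 reads against 9 in all (10.8 ± 1.5 and 2.97 ± 2.02, 3.62-fold). The authors' deposited table puts cocaine at 1.90 and saline at 0.53 of a background library, so the saline mean was below background there. The Ppp1r1b region, chr11:98213461-98213740, had 13.5, 12.4 and 13.5 in cocaine and 1.79, 3.09 and 6.91 in saline. Cocaine was even and saline scattered below it (13.1 ± 0.644 against 3.93 ± 2.66, 3.33-fold, 39 reads against 12). By its p-value in the authors' deposited table (2.81e-05) it ranked 328 of 11748, and that table gives it a ratio to background of 9.25 in cocaine and 2.77 in saline. From the deposited means and ratios, the background was 1.415 (cocaine) and 1.419 (saline) normalised counts at Ppp1r1b. At Drd2 it was 5.658 and 5.604. Backgrounds this low make the ratios at both regions imprecise.

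At Pdyn the listed 5hmC regions went opposite ways. The left region, chr2:129518441-129518640, had 3.84, 7.41 and 1.80 in cocaine and 11.7, 11.3 and 11.8 in saline. Saline was even and cocaine scattered below it (4.35 ± 2.84 against 11.6 ± 0.263, 12 reads against 36, 2.67-fold lower in cocaine). The right region, chr2:129558801-129559000, had 11.5, 22.2 and 12.6 in cocaine and 4.48, 8.24 and 1.97 in saline. Cocaine was 3.16-fold higher (15.5 ± 5.90 against 4.90 ± 3.16, 44 reads against 15), and the second cocaine library was the highest of the 6. Single libraries moved the sizes both ways. At Ppp1r1b the log2 ratio of 1.74 became 1.39 without the first saline library and 2.42 without the third. At Drd2 the ratio of 1.85 became 1.42 and 2.43 without the same libraries. The left Pdyn ratio of -1.42 became -1.04 without the third cocaine library and -2.04 without the second. The right Pdyn ratio of 1.66 became 1.28 without the third saline library and 2.26 without the second. The authors' deposited table gives adjusted p-values of 0.137 to 0.141 for these 4 regions, where only 4 of all 11748 listed regions are below 0.05.

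**Figure D5:**
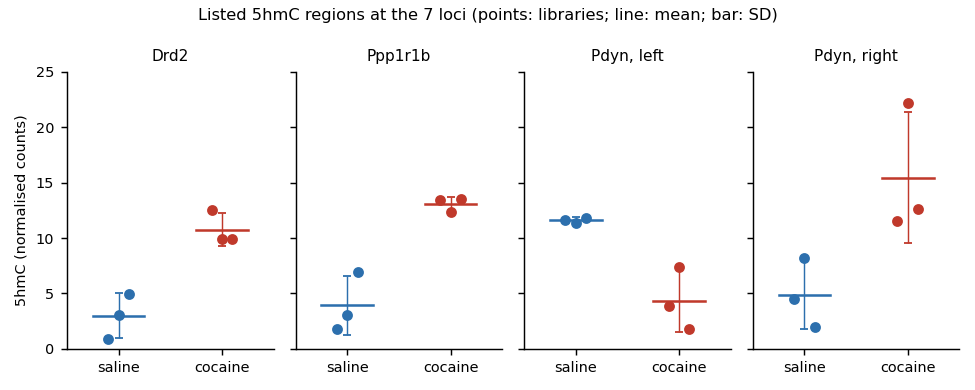
Normalised 5hmC counts per library (points; line, mean; bar, SD; n = 3) of the 4 listed 5hmC regions, with the Pdyn regions in order of position. Cocaine was higher at Drd2, Ppp1r1b and the right Pdyn region and lower at the left Pdyn region.

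The authors' deposited enhancer lists, which give positions only, placed 12 cocaine-specific and 2 saline-specific intervals at these loci, from lists of 10575 and 10555. Adora2a held 7 of these 14. Its cocaine-specific intervals were chr10:74745601-74746200, chr10:74751401-74752400, chr10:74755401-74755600, chr10:74785601-74787000 and chr10:74807201-74807400, and its saline-specific ones chr10:74737401-74737600 and chr10:74824001-74824200. A count of 5 or more cocaine-specific intervals was found in 0.303% of 110 kb bins of the genome. Adora2a held the most of the 7 loci, and no such share is given for the others. The bins are also unlike these windows, since 56.9% of them held no H3K27ac region. Pdyn had 3 cocaine-specific intervals: chr2:129458201-129460000, which touches the window by 1 bp, chr2:129478601-129478800 and chr2:129522201-129524200. The last, at 2000 bp, belongs to the longest 0.719% of the cocaine list, of which 72.5% are 200 bp long. Drd2 had chr9:49116001-49116600 and chr9:49229801-49230000, Drd1a had chr13:54104401-54104600, and Ppp1r1b had chr11:98238801-98239000. No interval was listed at Penk or Tac1.

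The marks met at few positions. The Ppp1r1b 5hmC region lay wholly, over 280 bp, within the H3K27ac region chr11:98213301-98214600, which did not pass the test (930.5 ± 30.8 in cocaine, 890.4 ± 42.1 in saline, log2 fold change 0.064 ± 0.0400, adjusted p = 0.289). The Drd2 5hmC region shared 200 bp with the cocaine-specific interval chr9:49229801-49230000 and was 4.88 kb from the nearest H3K27ac region. At Pdyn, the left 5hmC region was 3.56 kb from the 2000 bp interval and 5.06 kb from an H3K27ac region, and the right one 11.1 kb from the nearest H3K27ac region. That region, chr2:129570101-129571200, lies just outside the window and rose (310.2 ± 9.70 in cocaine, 266 ± 20.2 in saline, log2 fold change 0.22 ± 0.0554, adjusted p = 0.00140). Of the 12 cocaine-specific intervals at the loci, 3 overlapped an H3K27ac region (at Adora2a by 300 bp, at Ppp1r1b by 200 bp and at Pdyn by 500 bp), where 1.83% of that whole list did. These shares come from unlike windows: H3K27ac regions covered 13.2%, 35.9% and 5.18% of these 3 windows, while 56.9% of 110 kb bins held none. They also covered 19.7% of the Drd1a window and 5.77% of the Drd2 window, where no interval overlapped an H3K27ac region. The overlapping Adora2a and Pdyn intervals were also long, at 1400 and 2000 bp, where 3.01% of the list had at least 1400 bp. The part of coverage and of length in the overlap was not tested. The changes of the 3 overlapped H3K27ac regions did not pass the test, with log2 fold changes of 0.080 (adjusted p = 0.217), 0.014 (0.736) and -0.054 (0.479). None of the 7 H3K27ac regions that passed overlapped a listed 5hmC region or interval. In the whole lists, 193 of 10575 cocaine-specific and 116 of 10555 saline-specific intervals overlapped any H3K27ac region. The share of all called H3K27ac regions with such an overlap is not given here.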

How the data were processed

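The submitters' processing notes name Bowtie 0.12.9 and mm9. Per the file headers, diffReps 1.54 listed the H3K27ac regions from windows of 1000 bp in steps of 100 bp, using a negative binomial test and a window p of 0.0001. The 5hmC table has no header and windows of 200 bp, with no caller given in the sources used here. In both, the authors deposited for each listed region the normalised count of each library, the mean signal per group, its ratio to a background library, a log2 fold change, and a p-value with its adjusted p-value. The background library of the 5hmC table was not identified here, so the unassigned library may enter its ratios. For the enhancer intervals no method or build is given in the sources used here, and mm9 was assumed.

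The loci and lists were chosen with earlier results of these data known. Because the values are normalised and not raw counts, limma 3.58.1 (R 4.3.3) was run on log2(value + 1) over all 49712 H3K27ac regions. It compared 3 cocaine with 3 saline libraries, with a mean trend, robust moderation and Benjamini-Hochberg adjustment. Fold changes are on that log2(value + 1) scale. The same fit was run on simulated counts, drawn independently for each region and not selected by a caller. That run therefore cannot vouch for the calls here. Summed levels per locus were compared by exact two-sided permutation of libraries, with 7 such tests and p-values not adjusted over loci. The tests were repeated under the alternatives, and those p-values were not adjusted either. Overlap meant at least 1 shared bp. Named at each locus were the region of highest mean count, the largest increase and decrease, every region past an adjusted p of 0.05, all 5hmC regions and intervals, and, added after the data were seen, the region of highest level per kb. Alternatives were other pseudocounts, moderation, loess scaling, thresholds and windows, and leaving out each library. The number of per-library columns not used was 0. Summation and overlap used Python 3.11.15 with numpy 2.4.6, pandas 2.3.3 and scipy 1.17.1, and figures matplotlib 3.10.9. Loci of other striatal genes and of other cell types were not analysed here, since no mm9 annotation was used.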

Additional observations from a re-analysis of the deposited data

How the results depend on the processing

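Calls at the loci numbered 7, and numbered 0 with each region's own variance, 2 at an adjusted p of 0.01, and 2 to 6 when 1 library was left out (2 without cocaine replicate 1, 2 without cocaine replicate 2 and 4 without saline replicate 3). Over all regions, calls were 2 with own variance against 6479, 3082 without cocaine replicate 1, 3055 without cocaine replicate 2 and 3696 without saline replicate 3. The count over all regions at an adjusted p of 0.01 is not given here, so the 2 calls at that threshold cannot be set against a share. The log2 ratio of summed H3K27ac turned from 0.0217 to -0.00406 at Drd1a and from 0.00155 to -0.00232 at Ppp1r1b in the middle 0.5 of each window. At Ppp1r1b it ranged from -0.00378 to 0.00922 when 1 library was left out (-0.00343 without cocaine replicate 2, -0.000745 without saline replicate 2). The Drd2 region at chr9:49197901 ranged from -0.0299 to 0.00489, turning without cocaine replicate 2. In the middle 0.5 of each window 2 of 4 5hmC regions and 4 of 14 intervals were left, and 0 of the 4 5hmC regions had a deposited adjusted p below 0.05, against 4 of all 11748. The causes were not tested. Summed levels of the other 5 loci kept their direction under each setting run, as did the 7 called regions and the 4 5hmC regions, but several sizes moved when 1 library was left out. The log2 ratio of summed H3K27ac ranged from 0.00300 (without saline replicate 2) to 0.0356 (without saline replicate 3) at Drd1a and from 0.00364 (without cocaine replicate 2) to 0.0265 (without cocaine replicate 3) at Adora2a. It ranged from 0.0392 (without saline replicate 2) to 0.0977 (without saline replicate 3) at Penk and from 0.0227 (without cocaine replicate 2) to 0.0759 (without cocaine replicate 1) at Tac1, and within 0.0419 to 0.0670 at Drd2 and 0.0585 to 0.0822 at Pdyn. The alternatives edgeR and DESeq2, planned on H3K27ac reads recovered from the normalised counts, were not run. No paired analysis was possible because the numbers in the library names are not shared between groups. The 5hmC regions rest on 9 to 44 reads per group, which limits their precision. Alternatives that drop overlapping regions, and those of the share of regions higher in cocaine, were chosen after seeing the data. That share was 61.4% to 69.6% under them.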
